A study of Homo sapiens with 6 samples.

Results

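The 46 genes described here encode the machinery of the G2 to M transition and of mitosis, from the CDK1 kinase and its cyclins to the motors and scaffolds of cell division. They were taken by gene symbol from the deposited count table, in which all 46 were found among 40205 symbols, and all 46 had enough reads to be tested among 15047 genes. RNA-seq was run on 6 samples of the line labelled HepG2, a human hepatoma cell line grown in DMEM with fetal bovine serum. The control group (Control-1 to Control-3) was given no agent by its labels, and the CLs-treated group (CLs-1 to CLs-3) was exposed for 24 h to cationic liposomes made of DOTAP, cholesterol and a PEG lipid, at 120 μM by the labels. The study's text gives 120 μM for its flow cytometry. For its later experiments it names 120 μg/ml, its median inhibitory concentration for cell viability. Which unit holds for these samples is not settled here. The study's text calls the samples independent, but no label says that those of a group came from separate cultures, so p-values measure the spread between these samples, which may be technical.

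Mitotic genes are transcribed late in the cell cycle, so their level in a culture follows the share of cells in G2 and M as well as the transcription in each cell. In bulk RNA, fewer dividing cells and less RNA per dividing cell cannot be told apart. Cyclin B binds CDK1 and drives entry into mitosis, CDC25 phosphatases switch the complex on, and the anaphase-promoting complex (APC/C) ends mitosis by marking cyclin B and securin for destruction. Between these steps the spindle checkpoint holds anaphase until every kinetochore is attached. FOXM1 and the MuvB complexes switch the genes on in G2, through a promoter element known as CHR and nearby CCAAT boxes, which bind NF-Y.

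The promoter elements can be seen in the RefSeq sequences of the members (build GRCh38.p14, matched by symbol). Of 46 members, 39 had an entry, and FOXM1, AURKA, BUB3, TTK, UBE2C, BIRC5 and TPX2 had none. For each member the first entry listed was taken. The shares of all promoters given beside the members count every entry, so the units differ. A CHR match, TTTGAA or TTCGAA on either strand, lay within the 100 bases before the start in 15 of the 39 promoters (38.5%), against 4.92% of all 35116 promoters in the table. CCAAT on either strand lay within 250 bases before the start in 31 of the 39 (79.5%), against 32.0% of all promoters, and 19 of the 39 held it at 2 or more places (48.7%, against 9.53%). In 4 members, CCNB2, CKS2, PLK1 and MKI67, the CHR match began at the same position, -29 from the start. These windows are shown because CKS2 and MKI67 lie near the upper and lower ends of the fold changes given below while sharing both elements. Each is the 120 bases before the start, 5′ to 3′ on the gene's strand, with CHR and CCAAT matches in capitals. They are CCNB2 on the plus strand at chr15:59105026-59105145, CKS2 on the plus strand at chr9:89311075-89311194, PLK1 on the plus strand at chr16:23678769-23678888 and MKI67 on the minus strand at chr10:128126424-128126543.
CCNB2: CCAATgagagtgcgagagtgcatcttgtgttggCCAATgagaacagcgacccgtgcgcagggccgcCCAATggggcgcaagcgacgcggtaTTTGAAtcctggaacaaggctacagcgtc
CKS2: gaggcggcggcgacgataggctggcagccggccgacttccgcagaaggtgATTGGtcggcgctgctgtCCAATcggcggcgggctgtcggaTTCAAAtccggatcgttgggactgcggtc
PLK1: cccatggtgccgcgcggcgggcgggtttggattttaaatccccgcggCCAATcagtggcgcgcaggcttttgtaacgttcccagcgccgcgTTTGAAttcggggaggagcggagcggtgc
MKI67: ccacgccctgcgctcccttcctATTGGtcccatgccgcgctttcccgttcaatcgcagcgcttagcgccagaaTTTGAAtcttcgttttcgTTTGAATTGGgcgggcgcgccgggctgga
In CKS2 the CHR match and a CCAAT match are on the opposite strand, and in MKI67 the match nearest to the start overlaps a reversed CCAAT. A match of letters is a description and not a bound site, and a window without one says nothing about the factor.

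The libraries held 11418527 to 13998946 counted reads each, the most in CLs-1, and single members took between 184 and 8423 of them. Of 15 hepatocyte genes that HepG2 is known for, none exceeded 7 counts in the 5 libraries other than CLs-1. ALB, the gene of albumin, had 0 counts in those 5, and AFP, the gene of alpha-fetoprotein, had at most 1 count in any library. The labelled identity of the cells was therefore not seen in these markers. CLs-1 stood apart, with 165 counts over the 15 hepatocyte genes against 3 to 19 in the other libraries, and 479 counts over 6 erythroid genes against 0 to 4. The summed counts of 8 steroidogenic genes were 621 in CLs-1 and 72 to 108 elsewhere. The 8 stromal genes held 13379 counts in CLs-1 and 8226 to 12565 in the others, mostly from COL3A1, whereas COL1A2 reached 1044 counts there and no more than 2 in any other library. For 6 leukocyte genes the sums were 13 and 3 to 8, and for 4 endothelial genes 3 and 1 to 43. The part of these markers in the values of the members was not tested, and CLs-1 is shown apart below.

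No member passed the test between the groups. The test was the quasi-likelihood F test of edgeR on TMM-scaled counts, and a gene was called at a Benjamini-Hochberg adjusted p under 0.05 with a fold change above 1.5 or below 0.67. By this rule 0 of 46 members were called, beside 0.0864% of all 15047 genes tested (13 genes, with 0.0731% lower and 0.0133% higher). At an unadjusted p under 0.05 there was 1 member, CDK1, against 5.81% of all genes, and DESeq2 also called 0, with 2 at an unadjusted p under 0.05, against 3.1% of all genes in its fit. Of the members, 23 were higher and 23 lower in the CLs-treated group. By library size only the split was 28 higher and 18 lower, without CLs-1 it was 13 and 33, and with the GC trend described below removed it was 16 and 30. The median log2 fold change was -0.0028 over the members and 0.01 over all genes tested. No member had a fold change outside 0.67 to 1.5, and 5.4% of all genes tested did, which were not matched to the members in count level.

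Standard errors of the members' log2 fold changes lay between 0.12 and 0.24. The 95% interval of 38 of the 46 stayed inside fold changes of 0.67 to 1.5, which was so for 48.7% of all genes tested. The intervals of the other 8 reached past these limits, upward for CDK1, CKS2, TTK, NUF2 and HMMR and downward for FOXM1, AURKB and MKI67. The genes behind the 48.7% were not matched to the members in count level, and no count of a member was below 184. The part of count level in this difference was not tested. The intervals are not adjusted for the number of genes. A fold change of 1.5 or 0.67 thus lay outside the intervals of most members, and 1 of these limits lay inside the interval of each of the 8.

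**Figure D1:**
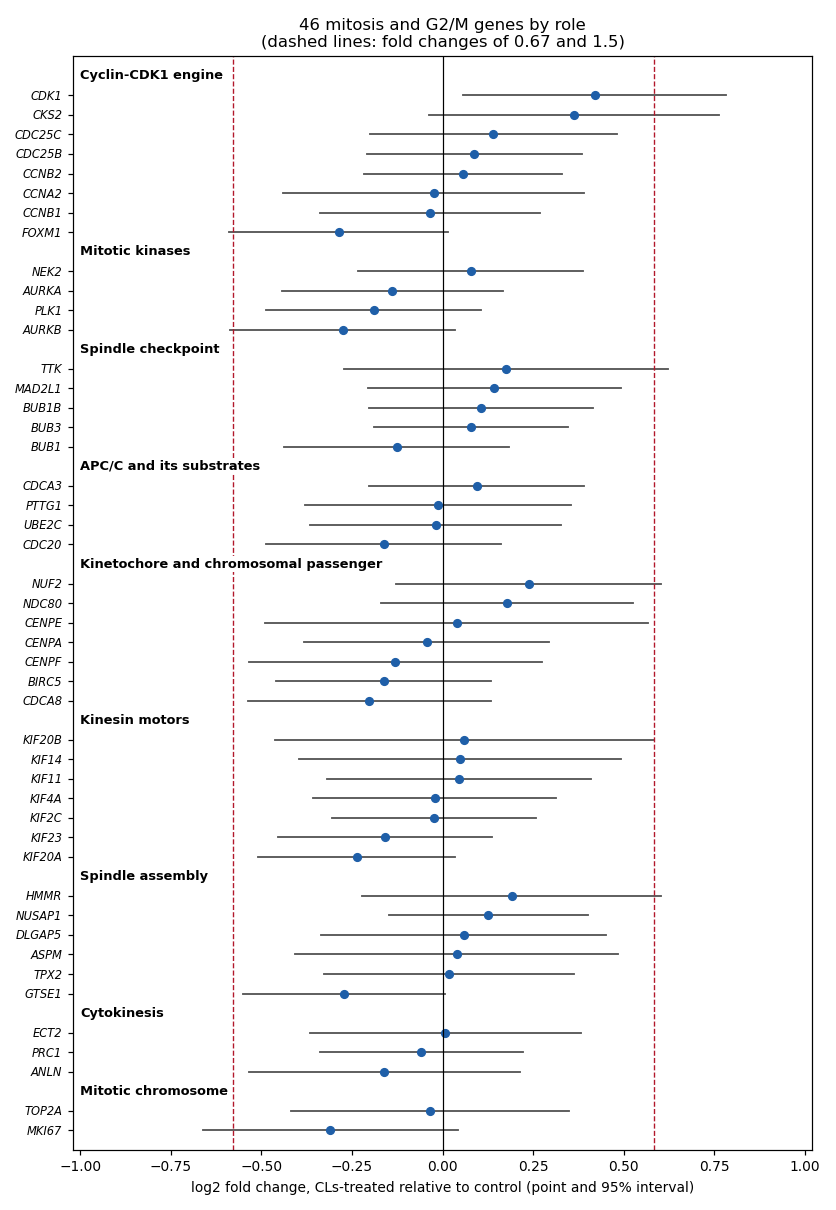
Log2 fold changes of the 46 members (x axis, CLs-treated relative to control, point and 95% interval), grouped by role (y axis), with dashed lines at fold changes of 0.67 and 1.5. The points lie between -0.31 for MKI67 and 0.42 for CDK1, and 8 intervals cross a dashed line.

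The CDK1 engine held the largest positive difference. Below, the values of single samples are CPM, counts scaled to a common library total after TMM, in the order of the replicate numbers, so that CLs-1 is the first treated value. CDK1, the kinase that drives mitotic entry, was measured at 86.5, 82.7 and 79.9 CPM in the controls and at 141, 96.5 and 95.7 CPM in the treated samples. The 3 CLs-treated samples lay above the 3 control samples, with CLs-1 far above the other two. The group means were 83.0 ± 3.30 and 111 ± 25.8 CPM (SD, n = 3 in each), a log2 fold change of 0.42 ± 0.17 (SE, edgeR adjusted p = 0.739). Without CLs-1 it was 0.21, with an adjusted p of 0.599 from edgeR. CKS2, a small subunit that binds CDK1, had 67.0, 65.2 and 54.6 CPM in the controls and 97.1, 83.9 and 59.0 CPM in the treated samples. Its groups overlapped through CLs-3, and its log2 fold change was 0.36 ± 0.18 (SE, edgeR adjusted p = 0.889), or 0.20 without CLs-1. CDC25C, a phosphatase that activates CDK1, was low and narrow in spread, at 17.5, 15.9 and 17.6 CPM in the controls and 18.3, 18.8 and 19.2 CPM in the treated samples. The treated samples lay above the controls, but the log2 fold change was only 0.14 ± 0.15 (SE).

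With all 6 samples, the log2 fold changes of the cyclins were close to 0. CCNB1, the cyclin B1 gene, had 292, 252 and 222 CPM in the controls and 255, 253 and 239 CPM in the treated samples. The treated samples lay within the range of the controls, and the log2 fold change was -0.04, with a 95% interval of -0.34 to 0.27. For CCNB2 and CCNA2, the other mitotic cyclins here, the log2 fold changes were 0.06 and -0.02, and that of CDC25B was 0.09. In CCNA2, CLs-1 lay above all controls and CLs-2 and CLs-3 lay below them. Without CLs-1, CCNB1, CCNB2 and CCNA2 were at -0.05, 0.03 and -0.26. FOXM1, the transcription factor that activates this programme in G2, lay at the other end of the group. It was measured at 425, 424 and 354 CPM in the controls and at 338, 349.6 and 298 CPM in the treated samples. All 3 treated samples were below all 3 controls, by a small margin between CLs-2 and Control-3. Its log2 fold change was -0.29 ± 0.14 (SE, edgeR adjusted p = 0.869).

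**Figure D2:**
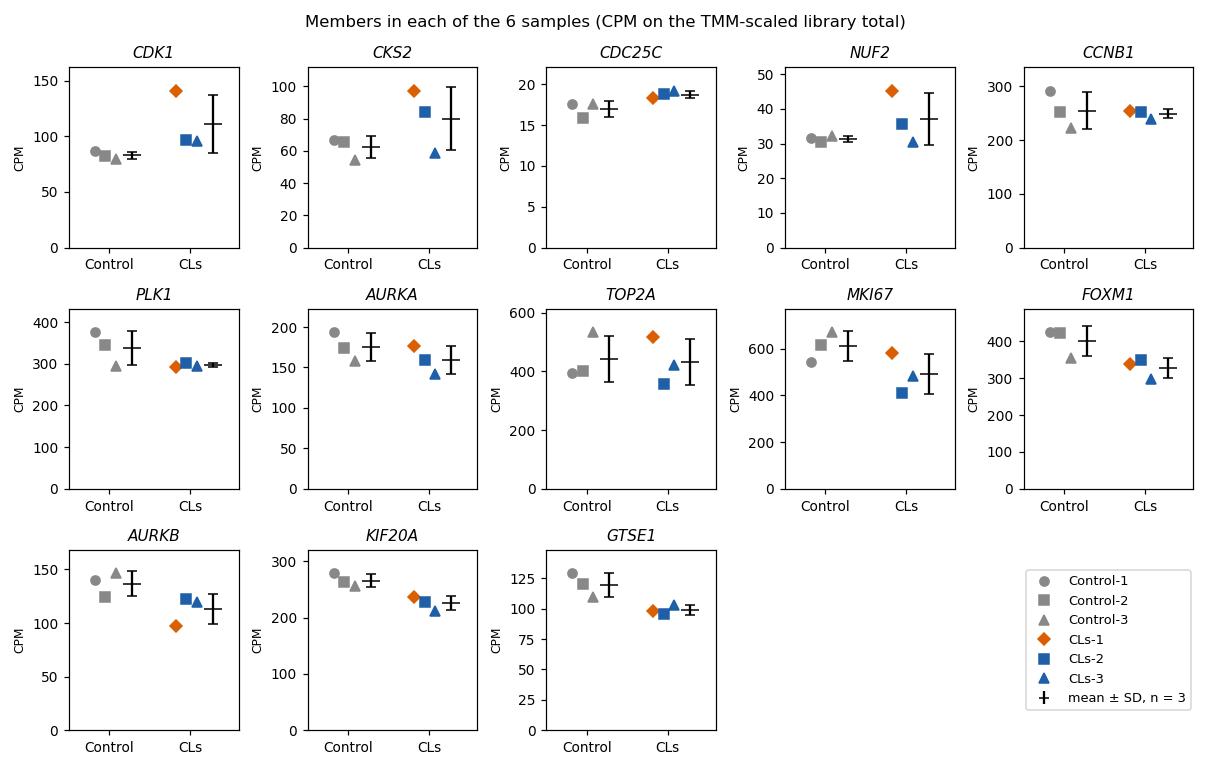
CPM of 13 members (y axis, from 0) in each control and CLs-treated sample (x axis), with the mean ± SD of each group of 3 in black. The 3 treated samples of CDK1 lie at 95.7 to 141 CPM above controls of 79.9 to 86.5, and those of FOXM1, AURKB, KIF20A and GTSE1 lie below the controls.

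Of the 4 mitotic kinases, 3 had lower means after CLs and none passed the test. AURKB, the kinase of the chromosomal passenger complex that corrects faulty attachments, had 140.1, 124 and 146 CPM in the controls and 96.9, 122 and 119.6 CPM in the treated samples. The groups did not overlap, with CLs-2 just under Control-2 and CLs-1 the lowest. Its log2 fold change was -0.28 ± 0.14 (SE, edgeR adjusted p = 0.890), or -0.18 without CLs-1. PLK1, which acts at centrosomes, kinetochores and in cytokinesis, had 376, 346 and 294 CPM in the controls and 292, 303 and 295 CPM in the treated samples. The treated samples were close together at the lower edge of widely spread controls, and the log2 fold change was -0.19 ± 0.13 (SE). AURKA, the spindle pole kinase, had 194, 175 and 159 CPM in the controls and 176, 159 and 143 CPM in the treated samples. Its groups overlapped, at a log2 fold change of -0.14 ± 0.14 (SE), and that of NEK2, a centrosome kinase, was 0.08.

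In the spindle checkpoint, TTK, MAD2L1, BUB1B and BUB3 had higher means and BUB1 a lower one. The log2 fold changes ran from -0.13 for BUB1 to 0.17 for TTK, with a median of 0.11, and the groups overlapped in all 5. Without CLs-1, TTK, MAD2L1 and BUB1B were at -0.12, -0.0096 and -0.020, and the median of the 5 was -0.020. Among the genes of the APC/C step, CDC20, which activates the complex, was at -0.16, UBE2C, its ubiquitin-conjugating enzyme, at -0.02, PTTG1, the gene of securin, at -0.01 and CDCA3 at 0.09. The 7 genes of the kinetochore and the chromosomal passenger complex ran from -0.20 for CDCA8, the gene of borealin, to 0.24 for NUF2. NUF2, a subunit of the NDC80 complex that binds microtubules, had 31.5, 30.5 and 32.2 CPM in the controls and 45.1, 35.5 and 30.3 CPM in the treated samples. The treated samples spread on both sides of tightly placed controls, and without CLs-1 the log2 fold change of NUF2 was 0.07. Its partner NDC80 was at 0.18, or 0.04 without CLs-1, and the motor CENPE at 0.04, or -0.33 without CLs-1. The centromeric histone CENPA was at -0.04, CENPF at -0.13 and BIRC5, the gene of survivin, at -0.16.

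The 7 kinesin motors had log2 fold changes between -0.24 and 0.06, with a median of -0.02, or -0.24 without CLs-1. KIF20A, the motor that carries the passenger complex to the central spindle, was the lowest, at 278, 263 and 255 CPM in the controls and 236, 228 and 212 CPM in the treated samples. Its groups did not overlap, and its log2 fold change was -0.24 ± 0.12 (SE, edgeR adjusted p = 0.899). KIF23, which bundles the central spindle, was at -0.16, and KIF11, the motor that separates the spindle poles, KIF14, KIF20B, KIF4A and KIF2C lay between -0.02 and 0.06. Among the 6 spindle assembly genes, GTSE1, which binds microtubules in G2 and mitosis, had 129, 120.1 and 109.5 CPM in the controls and 97.9, 95.8 and 103 CPM in the treated samples. It too had no overlap, at a log2 fold change of -0.27 ± 0.13 (SE, edgeR adjusted p = 0.860). The other 5, TPX2, HMMR, NUSAP1, ASPM and DLGAP5, lay between 0.02 and 0.19. HMMR, the highest of them, was at -0.0060 without CLs-1, and the median of the 6 then went from 0.05 to -0.17. The cytokinesis genes ECT2, PRC1 and ANLN were at 0.01, -0.06 and -0.16, and at -0.22, -0.08 and -0.39 without CLs-1.

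The 2 genes of the mitotic chromosome are the ones most used as proliferation markers. MKI67, the gene of Ki-67, which coats mitotic chromosomes, had the largest negative difference, with 542, 617 and 671 CPM in the controls and 583, 411 and 482 CPM in the treated samples. CLs-2 and CLs-3 lay below every control and CLs-1 lay among them. The log2 fold change of MKI67 was -0.31 ± 0.16 (SE, edgeR adjusted p = 0.894). Without CLs-1 it was -0.45 (edgeR adjusted p = 0.407). TOP2A, the topoisomerase that untangles sister chromatids, had 393, 403 and 533 CPM in the controls and 516, 358 and 423 CPM in the treated samples, so each group spanned most of the range of the other, at a log2 fold change of -0.03 ± 0.17 (SE).

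In all, the 3 treated samples lay beyond the 3 controls in 6 members, higher in CDK1 and CDC25C and lower in FOXM1, AURKB, KIF20A and GTSE1. The 2 higher members stand beside 5.34% of all genes tested and the 4 lower ones beside 6.18%. Together they are 13.04% of the members, beside 11.5% of all genes, so the share of the members is near the background. Each of the 6 had an exact two-sided permutation p of 0.10, the smallest that 3 samples against 3 allow. Summed over the members, the CPM was 7307 ± 68.3 in the control group and 6916 ± 608 in the CLs-treated group (SD, n = 3 in each). Among the treated samples CLs-1 had 7613 CPM and CLs-2 and CLs-3 had 6633 and 6501 CPM, on either side of controls of 7361, 7230 and 7329 CPM.

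Against the control mean, the median member was higher in CLs-1 and lower in CLs-2 and CLs-3. In CLs-1 the median member was 0.12 above the control mean on the log2 scale, and 31 of 46 members were above it. CLs-1 lay above all controls in 25 members (54.3%), beside 31.6% of all genes, and below all controls in 12, beside 29.8%. In the mean of CLs-2 and CLs-3 the median member was -0.13 relative to the control mean, and 33 of 46 were below it, beside 49.7% of all genes tested. CLs-2 and CLs-3 both lay below all controls in 14 members (30.4% of the members), beside 13.7% of all genes, and both above in 3 members, beside 13.6%. In 8 of the 14, CLs-1 lay above all controls, and these were ANLN, BUB1, CCNA2, CENPE, DLGAP5, ECT2, KIF14 and TTK. They are 17.4% of the members, beside 4.35% of all genes with that pattern. In FOXM1, AURKB, GTSE1 and KIF20A all treated samples were low, and in KIF23 and MKI67 CLs-1 lay among the controls. ANLN, which organises the contractile ring, shows the split, with 331, 327 and 327 CPM in the controls, 378 CPM in CLs-1 and 249 and 253 CPM in CLs-2 and CLs-3. With CLs-1 left out of the edgeR fit, 33 members were lower and 13 higher, the median log2 fold change was -0.13, and still 0 members were called. At an unadjusted p under 0.05 there were then 5 members, ANLN, MKI67, BUB1, KIF20A and KIF23, beside 9.02% of all genes in that fit, and the smallest adjusted p from edgeR was 0.359, for ANLN.

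**Figure D3:**
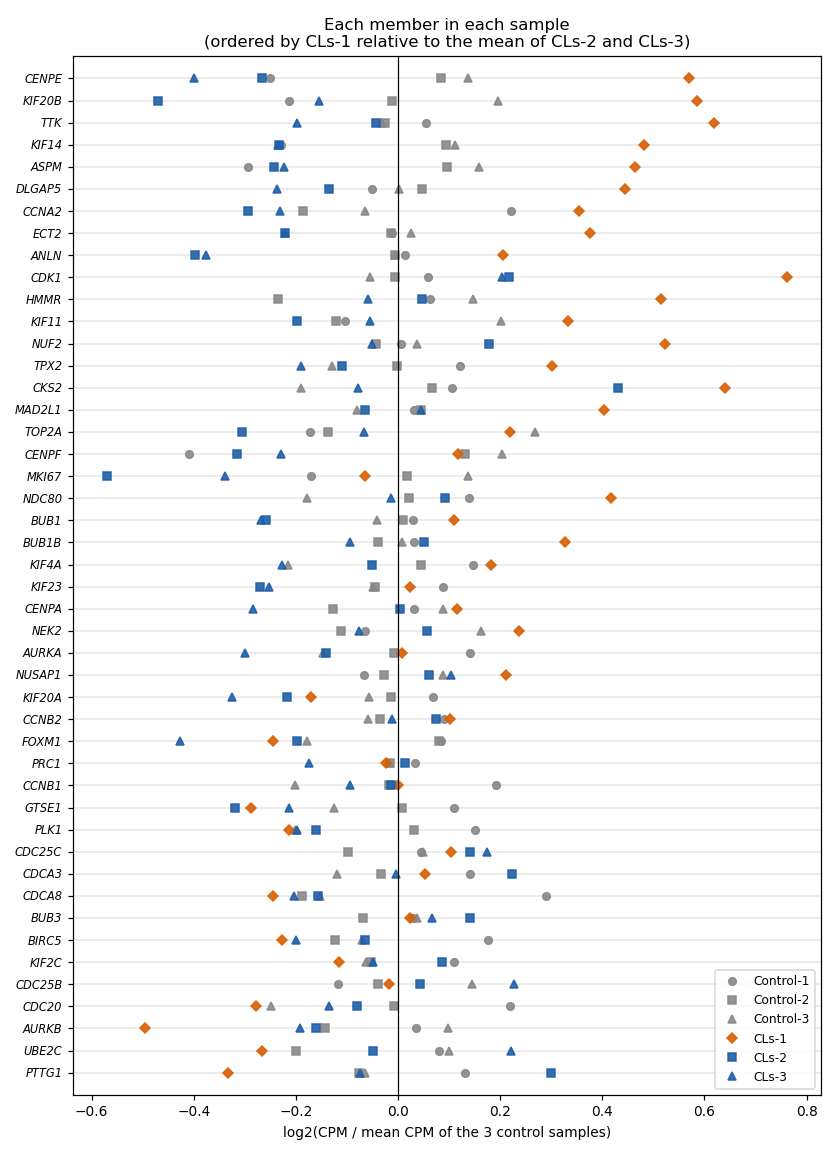
Each member (y axis, ordered by CLs-1 relative to CLs-2 and CLs-3) in each of the 6 samples, as log2 of its CPM over the mean CPM of the 3 controls (x axis). CLs-1 is the highest sample in 24 of 46 members and the lowest in 8, and CLs-2 and CLs-3 lie mostly left of 0.

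CLs-1 was the highest of the 6 samples in 24 members (52.2% of the members), beside 25.7% of all genes tested, and the lowest in 8 (17.4%), beside 23%. It exceeded both other treated samples in 31 members and was below both in 11, beside 39.9% and 39.8% of all genes. Set against the mean of CLs-2 and CLs-3, CLs-1 ranged from 0.728 times in PTTG1 to 1.87 times in CENPE. The ratio was over 1.5 in 9 members (19.6%), beside 8.35% of all genes tested, and these were CENPE, KIF20B, TTK, KIF14, ASPM, DLGAP5, CCNA2, ECT2 and ANLN. CENPE, the kinetochore motor that brings chromosomes to the spindle equator, had 46.3 CPM in CLs-1 and 25.9 and 23.7 CPM in CLs-2 and CLs-3, with 26.2, 33.1 and 34.3 CPM in the controls. PTTG1 showed the reverse, with 106 CPM in CLs-1, 165 and 127 CPM in CLs-2 and CLs-3, and 147, 127 and 128 CPM in the controls. CLs-1 was also the highest sample in 61 of 130 other cell cycle genes, described by list below. It was so in 12 of 18 cohesin and condensin, 16 of 30 other kinetochore and 11 of 21 other spindle genes. For APC/C, MuvB and E2F regulators, brakes and S phase it was 7 of 15, 6 of 18, 4 of 14 and 5 of 14. The median log2 ratio of CLs-1 to the mean of CLs-2 and CLs-3 was 0.30 over the members and 0.19 over these 130 genes.

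The order of the members by this ratio followed the GC content of their transcripts. GC content was taken from the longest protein-coding transcript of GENCODE release 29 for each member, and it ran from 34.2% in KIF20B to 59.3% in CDC25B. Across the 46 members, the log2 ratio of CLs-1 to the mean of CLs-2 and CLs-3 had a Pearson correlation of -0.81 with GC content and a Spearman correlation of -0.85. Across 13021 tested genes with a transcript the correlations were -0.50 and -0.59. All points share the same 3 libraries, and genes are not independent replicates. All 12 members under 40% GC were higher in CLs-1, with a median log2 ratio of 0.57, and 91.7% of all tested genes under 40% GC were higher, with a median of 0.44. Of the 11 members at 50% or above, 1 was higher, FOXM1, with a median of -0.10, against -0.21 for all tested genes in that range. In the ranges between, from 40 to 45% and from 45 to 50% GC, the members had medians of 0.36 and 0.23 and all tested genes 0.25 and 0.04. In each of the 4 ranges the median of the members was above that of all tested genes, by 0.11 to 0.19 on the log2 scale. GC content was not matched within a range, and the highest range reaches past the 59.3% at which the members end. These differences can therefore hold a part due to GC content, which was not tested. The correlation of the ratio with log10 transcript length was 0.51 over the members and 0.35 over all tested genes. The members' log2 fold changes between the groups, given above by role, also fell with GC content. Their Pearson and Spearman correlations with it were both -0.55.

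**Figure D4:**
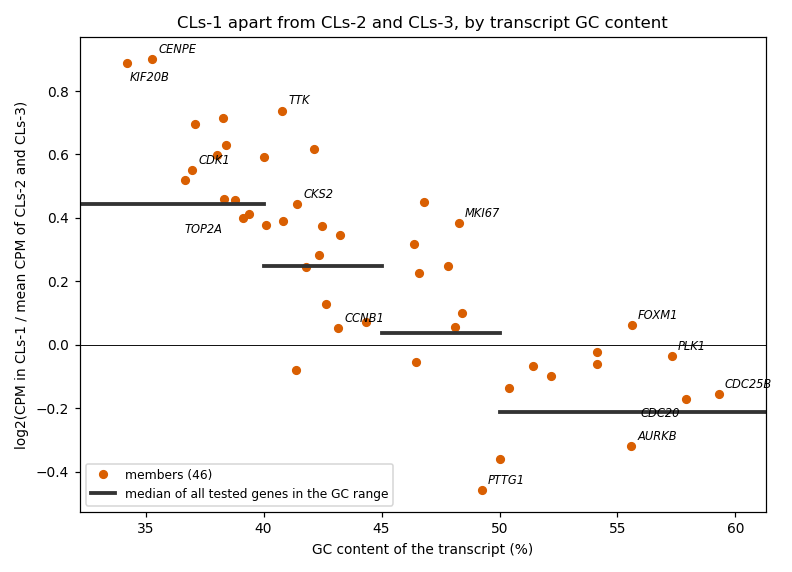
Log2 ratio of the CPM in CLs-1 to the mean CPM of CLs-2 and CLs-3 (y axis) against the GC content of the transcript (x axis, %) for the 46 members, with bars at the median of all tested genes in 4 GC ranges. The ratio runs from 0.90 for CENPE to -0.46 for PTTG1, and the bars fall from 0.44 to -0.21.

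The trend of each sample with GC content was taken out of the CPM values and, through the offsets, of the edgeR fit. This step was chosen after the data were examined, and the split narrowed. The trend was estimated from these same samples, so a narrowing in members that follow it was built into the step. CLs-1 was then the highest of the 6 samples in 11 members, beside 18.1% of the 13023 genes with a GC value, no member had a ratio over 1.5, beside 3.22%, and the median log2 ratio of CLs-1 to CLs-2 and CLs-3 was 0.10. The median member in CLs-2 and CLs-3 was still -0.12 relative to the control mean, and both samples lay below all controls in 11 members, beside 14.3% of those genes. For CDK1 the log2 ratio of CLs-1 to CLs-2 and CLs-3 was 0.55 before this step and 0.10 after it, and its log2 fold change between the groups went from 0.42 to 0.31. In this fit 30 members were lower and 16 higher, the median log2 fold change was -0.05, and 0 members were called.

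Members with and without the CHR match overlapped in their fold changes. The 15 members with a match within 100 bases had a median log2 fold change of -0.06, between -0.31 and 0.36, and the 24 without it a median of 0.04, between -0.28 and 0.42. CKS2 and MKI67, printed above with the element at the same position, stood at 0.36 and -0.31. This pair was chosen for its place near the ends of the fold changes, so the contrast was fixed by the choice. Neither gene passed the test (edgeR adjusted p = 0.889 and 0.894).

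Of 130 other cell cycle genes, in 7 lists, 0 were called. The median log2 fold change was 0.06 over all of them, and 3 had an unadjusted p under 0.05, beside 5.81% of all genes tested. For the 15 APC/C genes the median was 0.15, with 10 higher, or 0.06 with the GC trend removed, and CDC16, a core subunit, had the smallest p at 0.25 ± 0.14 (SE, edgeR adjusted p = 0.919). The 30 other kinetochore genes had a median of 0.12, with 24 higher, and DSN1 of the MIS12 complex was at 0.30. Without CLs-1 their median was 0.03, with 18 higher. The 18 genes of cohesin and condensin had a median of 0.02, with 8 lower, but without CLs-1 it was -0.14, with 17 lower. RAD21, the cohesin subunit cut by separase at anaphase, was at -0.30 (edgeR adjusted p = 0.847), with 580.3, 615 and 537 CPM in the controls and 521, 438 and 446 CPM in the treated samples. Its treated samples lay below its controls. Of the 130 genes, 7 had all treated samples below all controls, beside 6.18% of all genes tested, and 5 had them all above, beside 5.34%.

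The 21 other spindle and cytokinesis genes had a median of 0.02, with 10 lower, or -0.11 without CLs-1, with 18 lower, and KIF18B, a kinesin of microtubule ends, was at -0.31 (edgeR adjusted p = 0.760). Among 18 regulators of the MuvB, MYBL2, E2F and pocket protein families 13 were lower, with a median of -0.06, but without CLs-2 9 were lower and 9 higher, with a median of 0.01. Of these, MYBL2, which activates mitotic genes with MuvB, was at -0.21. The 14 genes listed as brakes of the cycle had a median of 0.0049 with 7 higher and 7 lower, and of 0.09 without CLs-1. CDKN1A had the highest log2 fold change among them, at 0.36 ± 0.32 (SE, edgeR adjusted p = 0.998). PLK2 of this list, a kinase induced by stress, had the smallest p of all 7 lists, at -0.37 ± 0.14 (SE, edgeR adjusted p = 0.654), with 78.5, 71.2 and 70.3 CPM in the controls and 58.3, 49.96 and 61.8 CPM in the treated samples. The 14 genes of S phase, such as PCNA and the MCM helicase, had a median of 0.06, with 10 higher, and CCNE2, a cyclin of the G1 to S transition, was at 0.45 (edgeR adjusted p = 0.863).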

How the data were processed

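The authors filtered single-end Ion Proton reads, mapped them with MapSplice and deposited the whole number of reads on each gene symbol as counts, without normalization. HTSeq 0.6.1 and the builds hg19 and GRCh37 are named in the submitters' processing notes. The annotation, the strand setting and the treatment of reads with several matches are not given in the sources used here. The authors' own comparison used RPKM values and EBSeq, which were not used here.

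From the deposited counts, filterByExpr, TMM scaling and the quasi-likelihood F test of edgeR 4.0.16 (R 4.3.3) were run on condition alone over 6 samples, with the fold and FDR limits of the study. CPM is on the TMM-scaled total. Standard errors come from the F statistic, and 95% intervals use the residual and prior degrees of freedom. Alternatives were DESeq2 1.42.0, other scaling factors and filters, no fold criterion, a block for the replicate number, and fits that left out 1 sample. Removing the GC trend was added after the data were examined. A transcript was found for 86.5% of the genes tested. The edgeR fit was also run on simulated counts with known changes, and the share of changes recovered is not given here.

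The members, lists and tests were chosen with earlier results of these data known. Samples are shown one by one for members that passed the test, for those whose groups did not overlap, for the 3 largest positive and negative differences, and for CCNB1, CDK1, PLK1, AURKA, TOP2A, MKI67 and FOXM1. ANLN, CENPE and PTTG1 were added after their values were seen. In each other list the gene with the smallest p is given, and CDKN1A was added after its values were seen. RAD21 and PLK2 were shown by sample after their values were seen.

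Replicates of a group differed by more than sampling noise, with a mean chi-square per gene of 8.19 to 34.8 between pairs. Depth was 13998946 counts in CLs-1 and between 11418527 and 11784181 in the other samples. By the study's text, CLs-1 also had the most raw reads and the lowest mapped ratio. The part of these differences in the values of CLs-1 was not tested.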

Additional observations from a re-analysis of the deposited data

How the results depend on the processing

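No member passed the criteria under any of the alternatives run, with or without the fold criterion. The median log2 fold change of the members lay between -0.05 and 0.02 under the 8 alternatives that kept all 6 samples. Leaving out 1 sample moved it to between -0.13 and 0.069, with the lowest value without CLs-1. The number of all genes called was 13, and it was 104 with DESeq2, 8 by library size only, 171 with no filter on low counts, 68 with the replicate number as a block, 24 with the GC trend removed, and 3 to 7 with 1 sample left out. The cause of these shifts was not tested. The replicate numbers were not taken as pairs, because no label says that a number marks a shared culture or day. The deviations of samples with the same number correlated at 0.111, 0.0987 and 0.305 over all genes. Over the members the correlations were -0.50, -0.22 and 0.06. These values do not settle whether the samples were paired.

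Direction changed under at least 1 alternative in 21 members, none of them called, whose log2 fold changes with all samples were at most 0.19 in size. By library size only, the log2 fold changes of CCNA2, UBE2C, PTTG1, KIF2C and KIF4A were 0.0068, 0.0042, 0.0084, 8.31e-05 and 0.0071. With the replicate block, those of CENPE, KIF20B and ECT2 were -0.018, -0.0015 and -0.021. With the GC trend removed, CENPE, KIF20B, KIF11, KIF14, ASPM, DLGAP5 and ECT2 were at -0.11, -0.098, -0.044, -0.057, -0.073, -0.040 and -0.093. Leaving out 1 sample gave log2 fold changes on both sides of 0 for 21 members, which ran in CCNA2 from -0.26 to 0.10, CCNB1 from -0.13 to 0.072, NEK2 from -0.0096 to 0.17, BUB1B from -0.020 to 0.20, TTK from -0.12 to 0.33, MAD2L1 from -0.0096 to 0.24 and UBE2C from -0.15 to 0.092. They ran in PTTG1 from -0.20 to 0.12, CENPA from -0.13 to 0.061, CENPE from -0.33 to 0.21, KIF11 from -0.13 to 0.16, KIF14 from -0.24 to 0.17, KIF20B from -0.30 to 0.26 and KIF2C from -0.082 to 0.034, and in KIF4A from -0.14 to 0.070, TPX2 from -0.15 to 0.11, HMMR from -0.0060 to 0.30, ASPM from -0.23 to 0.16, DLGAP5 from -0.19 to 0.18, ECT2 from -0.22 to 0.11 and TOP2A from -0.18 to 0.12.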
